A study of Arabidopsis thaliana with 6 samples.

Results

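The genes described here lie in the gene-poor regions around the 5 centromeres of Arabidopsis thaliana and were expressed in wild-type rosettes. They were chosen by locus number and by level. A probe set had to name a single gene, with a locus between AT1G34000 and AT1G47999, AT2G04000 and AT2G13999, AT3G29000 and AT3G44499, AT4G03500 and AT4G10499 or AT5G27000 and AT5G35999. Its mean over the wild-type arrays had to reach about 5.9 on the log2 scale, and a gene with several such probe sets was represented by the highest. Of 13217 genes on chromosomes 1 to 5 that had a probe set of their own, 1488 lay in these windows and 278 of those passed the level. Expressed genes without a probe set naming them alone are not among the 278. Chromosomes 1 to 5 contributed 69, 46, 40, 65 and 58 genes.

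The study measured 6 Affymetrix arrays of RNA from rosette leaves, 3 from the wild type Columbia-0 and 3 from a double mutant. The mutant is labelled as a knockdown of at3g03940 and at518190, the latter locus written with a digit missing, and the closest full locus is AT5G18190. Plants of both genotypes were 21 days old, grown under 12 h of light and well watered, so no osmotic stress is part of this comparison. The labels name neither the kind of alleles nor whether the replicates were separate plants, and every p-value here reflects only the spread among 3 RNA samples a genotype, some of which may be technical.

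Pericentromeric DNA is packed mostly as heterochromatin, dense in transposons and marked by methylated DNA and by methylation of histone H3 at lysine 9. Genes with ordinary housekeeping or leaf functions are nevertheless interspersed among the repeats. The series title names these regions as sites where histone H3 is phosphorylated at threonine 3, and the knocked-down loci belong to a family of plant protein kinases, the MUT9-like kinases. The comparison therefore asks whether the expressed genes of these regions differed between genotypes, and whether they did so more or less often than arm genes of the same level.

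AT5G18190 served as the check of the genotype labels. It measured 7.92, 7.74 and 7.63 on the wild-type arrays and 3.42, 3.57 and 3.36 on the double mutant arrays. On the mutant arrays it was near background, below the 0.25 quantile of all probe sets, which makes the fall at least 19.9-fold (log2 difference -4.32, SE 0.10, limma adjusted p = 2.05e-09). AT3G03940 was not analysed here.

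All values are log2 intensities normalised together by robust multi-array averaging (RMA), and array medians lay between 5.81 and 5.9. A gene was called higher or lower where limma's adjusted p was under 0.05 over 22746 probe sets. With 3 arrays against 3, an exact permutation test of a single gene cannot go below 0.1. Leaf material was checked by markers. Of 10 leaf markers 1 was measured, RCA, which encodes Rubisco activase. It lay between 12.89 and 12.99 in the wild type and between 13.51 and 13.57 in the mutant, and it was called higher. Of 5 root markers 2 were measured, with summed log2 levels of 11.17 to 11.44 in the wild type and 11.81 to 11.88 in the mutant, and both were called higher. Single values of these root markers spanned 4.45 to 11.86 over the arrays, so the sum need not describe both. Of 5 seed markers, PAP85 alone was measured, at 3.00 to 3.52 and 4.14 to 4.50, and it was called higher. None of 5 flower markers was measured. Only 13513 of 22810 probe sets named a single gene, so markers without such a probe set may still be on the array. The part of these tissues in the results below was not tested, and in such bulk RNA fewer cells of a type and less RNA per cell cannot be told apart.

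Technical controls also differed between the genotypes. The probe set that controls for 25S ribosomal RNA averaged 5.93 in the wild type and 12.20 in the mutant. The 5′ minus 3′ difference of the actin control averaged -4.03 in the wild type and -3.37 in the mutant, and that of the GAPDH control -1.21 and -0.83. A second actin control differed by 0.35 in the same direction, the ubiquitin control by -0.19 in the other, and second GAPDH and ubiquitin controls by 0.03 and 0.06. Their part in the results was not tested. The second wild-type array stood apart in its bacterial spike controls, with a median of 7.65 over 18 of them, beside 8.41 to 8.78 on the other arrays.

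Few pericentromeric genes reached the level. It is close to the array medians of 5.81 to 5.9, so a gene below it need not be silent. The 278 expressed genes were 18.7% of the pericentromeric genes with a probe set, whereas 5504 of 11729 arm genes, or 46.9%, reached the same level. The share was 22.1% on chromosome 1, 13.5% on chromosome 2, 13.1% on chromosome 3, 21.0% on chromosome 4 and 26.4% on chromosome 5. By gene type 273 were protein-coding and 5 were pseudogenes. These shares follow from the wild-type level that chose the genes and are given as a description.

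The most abundant members were genes of ordinary leaf functions. AT2G10940, which encodes a proline-rich protein of the lipid-transfer type, was highest with a wild-type mean of 12.42. ATPC1, the gamma subunit of the chloroplast ATP synthase, had 12.14 and AT5G27700, a cytosolic ribosomal protein, 11.51. ATHM2, the plastid thioredoxin m2, had 11.39, and AT2G05540, a glycine-rich protein, had 11.26. At the other end AT5G35930 and AT1G34630 both averaged 5.91, just inside the level. AT4G09490 and GLR3.3, a glutamate receptor-like channel, both averaged 5.85, just outside it.

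In the double mutant 38 of the 278 genes were higher and 86 were lower, and 154 were not called. The called share was 44.6%, with 13.7% higher and 30.9% lower. Without the second wild-type array 39 were higher and 86 lower. Over all probe sets 38.5% were called, 19.8% higher and 18.7% lower. Genes below the expression level were called less often, at 12.1% in the pericentromeric windows and 26.5% on the arms, so expressed genes are the closer background. Among the 5782 expressed genes of chromosomes 1 to 5, 48.3% were called. Weighted to the level distribution of the pericentromeric genes, 48.6% of arm genes were called, 22.3% higher and 26.3% lower.

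A stretch of the chromosome 5 arm weighed on that comparison. Between AT5G40450 and AT5G55000, 302 of 353 expressed genes were called higher and 13 lower. Without this stretch, which was singled out from earlier results of these data, 45.8% of arm genes at equal level were called, 18% higher and 27.8% lower. The 44.6% of the pericentromeric genes stood close to this share, with fewer increases and slightly more decreases.

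The median log2 difference of the 278 genes was -0.07, with quartiles of -0.36 and 0.14. The equal-level arm genes without the chromosome 5 stretch had a median of -0.06, and with it -0.04. Of the pericentromeric genes 60.4% lay below 0. For each array, the median difference of the members from the wild-type arrays was -0.08, -0.08 and -0.09 in the mutant and -0.01, 0.00 and 0.04 in the wild type, each wild-type array being set against the other wild-type arrays. The median size of a difference was 0.26, against a median SD between replicates of 0.12 in the wild type and 0.08 in the mutant. Arrays of the genotypes did not overlap for 160 genes, or 57.6%, beside 49.7% of all probe sets, 60.2% of all expressed genes and 58.1% of expressed arm genes without the chromosome 5 stretch.

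Large differences were few. A log2 difference of 1 or more together with the call was reached by 6 genes upward and 16 downward, 7.91% in all. These were 2.16% higher and 5.76% lower. The same rule took 7.1% of all probe sets, 4.35% higher and 2.75% lower, and of the equal-level arm genes without the chromosome 5 stretch 2.61% higher and 4.53% lower. The double mutant mean fell below the expression level for 16 genes, or 5.76%, beside 5.89% of arm genes.

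**Figure D1:**
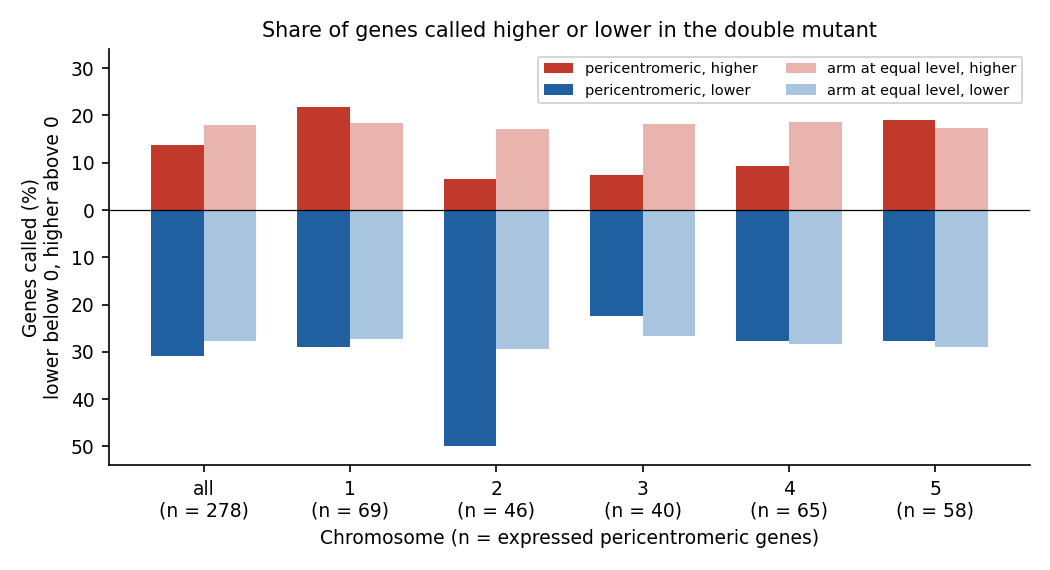
Share of genes called higher (above 0) or lower (below 0) in the double mutant by limma at an adjusted p under 0.05, for the expressed pericentromeric genes (dark bars) and for arm genes weighted to equal wild-type level without the chromosome 5 stretch (pale bars). On chromosome 2 the lower bar reaches 50% for pericentromeric genes and 29.3% for arm genes.

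Chromosomes differed in these counts. On chromosome 2, 23 of 46 genes were lower and 3 were higher, 56.5% in all, whereas 29.3% of the equal-level arm genes of that chromosome were lower and 17.1% higher. The median difference was -0.36 there and -0.09 on the arms, and 78.3% of the genes lay below 0. On chromosome 3, 9 of 40 genes were lower and 3 higher, 30% in all beside 44.8% of the arm genes. On chromosome 4, 18 of 65 were lower and 6 higher, 36.9% beside 47.1%. By direction, chromosome 3 had 22.5% lower and 7.5% higher, beside 26.7% and 18.1% of its arm genes. Chromosome 4 had 27.7% lower and 9.23% higher, beside 28.4% and 18.7%. On both, the share of increases stood further from the arms than the share of decreases.

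Chromosomes 1 and 5 stood nearer to their arms. On chromosome 1, 20 of 69 genes were lower and 15 higher, 50.7% beside 45.7% of arm genes. On chromosome 5, 16 of 58 were lower and 11 higher, 46.6% beside 46.3% without the stretch of increases and 57.8% with it. The median differences were -0.07 on chromosome 1, -0.05 on chromosome 3, -0.02 on chromosome 4 and -0.08 on chromosome 5. No test was made of the differences between chromosomes, since the genes were chosen with results known.

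The chromosome 2 shift was seen on every mutant array. The median difference of its 46 genes was -0.36, -0.30 and -0.39 on the 3 mutant arrays, and -0.03, 0.04 and 0.00 on the wild-type arrays. Without the second wild-type array 24 were lower and 4 higher, with a median of -0.34. Without chromosome 2 the other 232 genes had 35 increases (15.1%) and 63 decreases (27.2%), 42.2% in all, and a median of -0.05. Expressed arm genes outside chromosome 2, without the chromosome 5 stretch and not weighted by level, were 18.2% higher and 27.6% lower. These were 45.8% in all. The share of decreases outside chromosome 2 was thus close to that of the arms.

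The wild-type arrays both chose the genes and entered the comparison, so the level was also taken from other arrays. With the mean of all 6 arrays, 276 genes passed, 46 higher (16.7%) and 76 lower (27.5%), with a median of -0.05. Arm genes chosen the same way, without the chromosome 5 stretch, were 20.6% higher and 25.2% lower, with a median of -0.035. With the mutant mean 281 pericentromeric genes passed, 55 higher (19.6%) and 71 lower (25.3%), with a median of -0.04. The arm genes were then 23.1% higher and 22.8% lower, with a median of -0.01. On chromosome 2 the median became -0.28 with the 6-array mean and -0.16 with the mutant mean. By the mutant mean 17 of 43 chromosome 2 genes were lower, or 39.5%, beside 22.3% of the arm genes chosen the same way, whose median was -0.03. The chromosome 2 median thus became smaller in size with each of these choices and stayed below that of its arms.

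**Figure D2:**
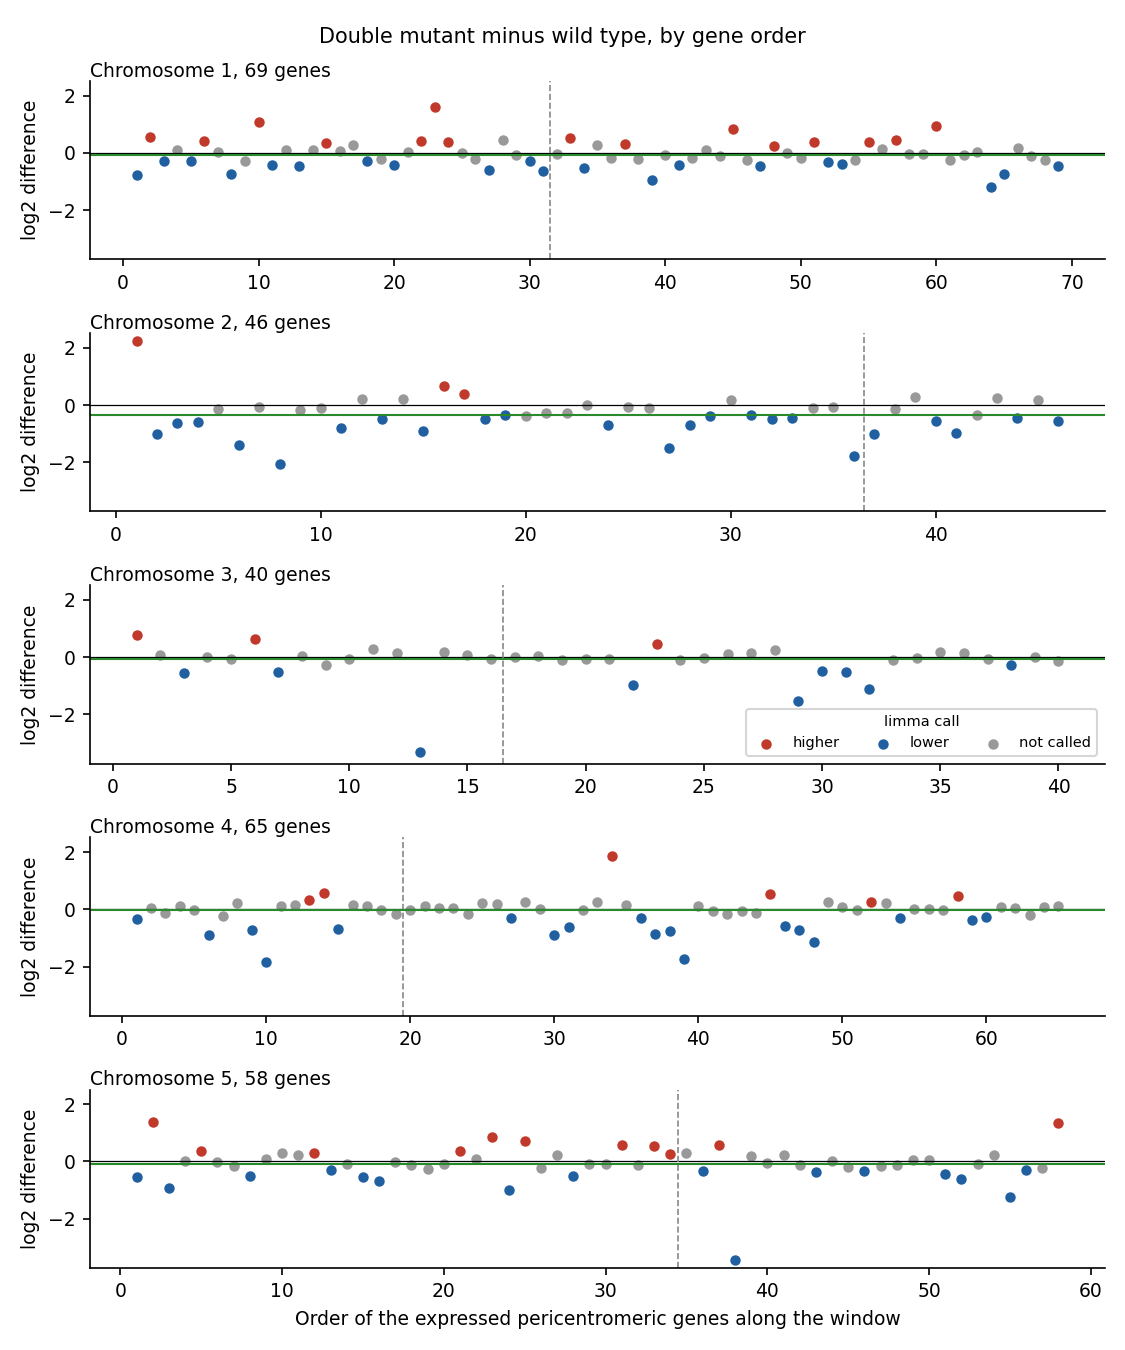
Log2 difference, double mutant minus wild type, of each expressed pericentromeric gene in its order along the window, 1 panel for each chromosome, colored by the limma call. The green line is the median of the chromosome and the dashed line marks the widest step in locus number between neighbouring genes; chromosome 2 has its median at -0.36, the other 4 between -0.08 and -0.02.

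The decreases of chromosome 2 lay on both sides of its widest gap in expressed genes, between AT2G07777 and AT2G10940. Before the gap 18 of 36 genes were lower and 3 higher, with a median of -0.36. After it 5 of 10 were lower and 0 higher, with a median of -0.39. A running median over 15 genes stayed between -0.50 and -0.16. On the other chromosomes it crossed 0 and lay between -0.19 and 0.23.

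The longest run of genes below 0 on chromosome 2 held 10 genes, from AT2G04240 to AT2G04570, of which 6 were called. On the other chromosomes the longest run of genes below 0 held 8 genes, on chromosome 5 from AT5G27650 to AT5G27830, of which 3 were called. Of the 25 expressed arm genes nearest to the chromosome 2 window, those before it had 5 increases and 5 decreases and a median of -0.03. The 25 after it had 1 increase and 12 decreases and a median of -0.25.

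Of the 46 genes on chromosome 2, 4 lie in the stretch of chromosome 2 that copies mitochondrial DNA, so that their probe sets may also read organelle transcripts. Among these AT2G07777 had a difference of -1.78 and AT2G07707 one of -0.46, both called, and AT2G07741 and AT2G07751 had -0.10 and -0.07. Without them 21 of 42 genes were lower, 3 were higher and the median was again -0.36.

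The chromosome 2 genes that fell had varied functions. AT2G04400 encodes indole-3-glycerol phosphate synthase, an enzyme of tryptophan synthesis. It measured 9.22, 9.37 and 9.27 in the wild type and 7.89, 7.87 and 7.95 in the mutant. The groups did not overlap (log2 difference -1.38, SE 0.09, 2.61-fold lower, limma adjusted p = 5.73e-07).

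ATG8D belongs to the ubiquitin-like proteins that coat autophagosome membranes. It measured 8.43, 8.42 and 8.47 in the wild type and 7.14, 6.94 and 6.74 in the mutant, again without overlap (log2 difference -1.50, SE 0.11, 2.82-fold lower, limma adjusted p = 1.54e-06). XERICO, a RING-type protein known for raising abscisic acid levels, had 9.11, 8.95 and 9.33 and then 8.02, 8.23 and 8.09. All its mutant arrays lay below all wild-type arrays (log2 difference -1.02, SE 0.11, limma adjusted p = 3.49e-05).

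AT2G10940, the most abundant member of all, had 12.52, 12.16 and 12.59 in the wild type and 11.41, 11.39 and 11.40 in the mutant. Its mutant arrays were nearly equal and all lower (log2 difference -1.03, SE 0.12, 2.04-fold lower, limma adjusted p = 3.93e-05). AT2G05790, a glycosyl hydrolase of the cell wall type, fell by 0.71 and ZAP1, the WRKY factor WRKY1, by 0.36. The ZAP1 call was lost when any of 5 arrays was left out, with adjusted p up to 0.108.

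The 3 chromosome 2 increases were AT2G04039, AT2G04795 and AT2G04845. AT2G04795 measured 7.17, 7.84 and 7.32 in the wild type and 8.02, 8.12 and 8.17 in the mutant (log2 difference 0.66, limma adjusted p = 0.00506). AT2G04845 rose by 0.40. These 2 genes are neighbours among the expressed members, and both were chosen for mention after their values were seen.

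AT2G04039 had the largest increase of all 278 genes. It encodes a plastid protein needed for the chloroplast NADH dehydrogenase-like complex, which carries electrons in cyclic flow around photosystem I. It measured 6.88, 6.43 and 6.79 in the wild type and 8.89, 8.94 and 8.95 in the mutant. The groups were far apart (log2 difference 2.23, SE 0.12, 4.69-fold higher, limma adjusted p = 1.72e-07).

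EXO, the extracellular protein EXORDIUM that is induced by brassinosteroids, followed. It had 8.48, 8.29 and 8.48 in the wild type and 10.37, 10.31 and 10.16 in the mutant, with no overlap (log2 difference 1.86, SE 0.10, 3.63-fold higher, limma adjusted p = 1.76e-07). AT1G36060, a transcription factor of the AP2/ERF family, had 5.83, 5.99 and 5.97 and then 7.59, 7.40 and 7.62. Every mutant array was above every wild-type array (log2 difference 1.61, SE 0.10, 3.05-fold higher, limma adjusted p = 4.36e-07). Its neighbours among the expressed genes, AT1G36050 and AT1G36070, were called higher too, by 0.42 and 0.37.

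The other genes among the 10 largest increases rose by 0.76 to 1.38. They were AT5G27290 at 1.38, the helicase-like gene AT5G35970 at 1.34, AT1G34630 at 1.07, the protein phosphatase 2C gene AT1G47380 at 0.95 and the F-box gene AT5G27920 at 0.84. AT1G44000, related to the STAY-GREEN proteins of chlorophyll breakdown, rose by 0.83 and AT3G29075, a glycine-rich protein, by 0.76. Of the 10, 4 lie on chromosome 1 and 3 on chromosome 5.

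**Figure D3:**
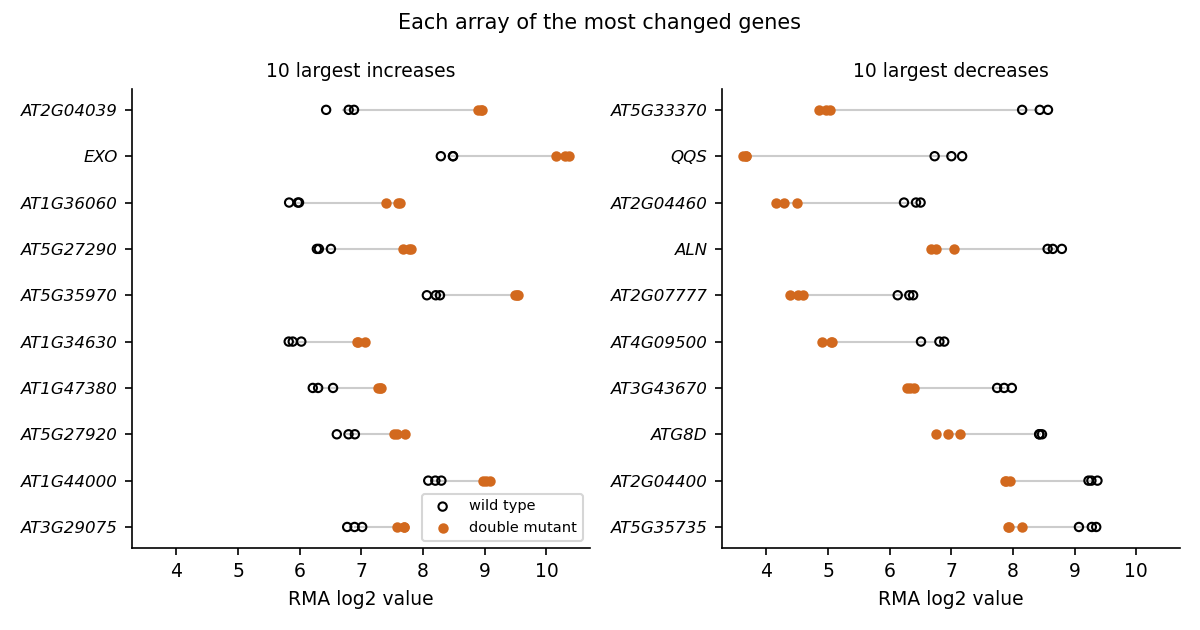
RMA log2 value of each array for the 10 largest increases (left) and the 10 largest decreases (right) among the called genes whose genotypes do not overlap; open circles are wild-type arrays, filled circles double mutant arrays, and the line joins the means. AT2G04039 moves from a mean of 6.70 to 8.93, and AT5G33370 from 8.38 to 4.95.

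The largest decreases were on chromosomes 5 and 3. AT5G33370 encodes a GDSL-type lipase, an enzyme family that includes builders of the leaf surface polyester cutin. It measured 8.57, 8.15 and 8.43 in the wild type and 5.03, 4.97 and 4.85 in the mutant. The mutant arrays were all below the level that defined expression (log2 difference -3.43, SE 0.12, 10.8-fold lower, limma adjusted p = 1.27e-08).

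QQS, a gene found only in Arabidopsis thaliana and linked to starch content and to the balance of carbon and nitrogen, had 6.73, 7.0 and 7.17 in the wild type. Its mutant arrays read 3.66, 3.62 and 3.66, near background, and it was the only member near background there. Its fall is at least 9.98-fold, a lower bound (log2 difference -3.32, SE 0.11, limma adjusted p = 1.32e-08).

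ALN, the allantoinase of purine breakdown, measured 8.79, 8.64 and 8.56 in the wild type and 7.04, 6.75 and 6.66 in the mutant. There was no overlap (log2 difference -1.85, SE 0.12, 3.59-fold lower, limma adjusted p = 5.50e-07). AT2G04460, a pseudogene, fell by 2.07, from a mean of 6.39 ± 0.14 to 4.31 ± 0.17 (SD, n = 3). Of the 5 pseudogenes 3 were lower and 0 higher, beside 3 lower and 0 higher of 10 arm pseudogenes.

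The remaining large decreases were enzymes and a membrane protein. The UDP-glycosyltransferase gene AT4G09500 fell by 1.73, AT3G43670, a copper amine oxidase, by 1.53 and AT5G35735, of an auxin-responsive family, by 1.23. With AT2G04460, AT2G07777, ATG8D and AT2G04400, 4 of the 10 largest decreases lay on chromosome 2, beside 1 of the 10 largest increases.

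Genes were also grouped by role, from 9 lists of loci in these windows that together hold 236 loci. Of these 62 had a probe set naming them alone and 52 of those were expressed. The other loci on the lists were left out, whatever their level. Among the 52, 8 were higher, 20 lower and 24 not called, and among the 226 genes on no list 30, 66 and 130. The lists are short and were chosen with earlier results of these data known, so the counts and medians are descriptions.

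Genes for photosynthesis and plastid proteins were the list with the highest median, 0.26 over 11 members. Of them 5 were higher, 2 lower and 4 not called. Beside AT2G04039 and AT1G44000 the increases were AT5G28500, a Rubisco accumulation factor, at 0.59, AT5G28750, of the thylakoid twin-arginine protein translocase, at 0.53, and AT5G27560 at 0.29. AT5G28750 measured 8.79, 8.74 and 8.98 in the wild type and 9.38, 9.36 and 9.35 in the mutant, without overlap (limma adjusted p = 0.00103).

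The decreases of that list were AT5G35170, a plastid adenylate kinase, by 0.38 and ATHM2 by 0.35. ATHM2 had 11.55, 11.13 and 11.48 in the wild type and 11.03, 11.10 and 10.96 in the mutant, the second wild-type array lying just above the mutant arrays (limma adjusted p = 0.0331), and the call was lost when any of 5 arrays was left out. ATPC1 differed by 0.12 (limma adjusted p = 0.30) and AT2G04700, the catalytic subunit of ferredoxin-thioredoxin reductase, by 0.20 (limma adjusted p = 0.0962).

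None of 7 expressed genes for cytosolic ribosomal proteins and translation factors was called. Their differences lay between -0.11 and 0.10 around a median of -0.07. AT5G35680, an initiation factor of the eIF1A type, had the largest statistic, with 9.74 ± 0.05 and 9.63 ± 0.05 (SD, n = 3, limma adjusted p = 0.369). AT5G27700, the third most abundant member, differed by -0.08 (limma adjusted p = 0.505).

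The genes of transport and membrane trafficking had no call among 6, with differences between -0.18 and 0.17. VPS2.1, of the ESCRT-III membrane-sorting complex, differed by 0.17 (limma adjusted p = 0.146). AT3G42050, subunit H of the vacuolar proton pump, differed by 0.02.

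Primary metabolism showed 4 decreases and 1 increase among 5 genes, around a median of -1.38. The decreases were QQS, ALN, AT2G04400 and ATSPS4F, a sucrose-phosphate synthase, the last by 0.31. GME, the GDP-mannose epimerase of vitamin C synthesis, rose by 0.27 (limma adjusted p = 0.0391). Both members of the list of lipid, hormone and specialised metabolism were lower, AT5G33370 and UGT80B1, a sterol glucosyltransferase that fell by 0.94.

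Cell wall and extracellular genes moved both ways, 2 higher and 3 lower among 5. EXO and the pectin methylesterase gene AT3G43270 rose, the latter by 0.45. AT2G10940, AT2G05790 and the peroxidase gene Prx37 fell, the last by 0.61.

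Of 6 genes for receptors, kinases and signalling 4 were lower, around a median of -0.84. They were AT5G35735, XERICO, GID1C, a gibberellin receptor, and AT1G34110, a leucine-rich repeat receptor kinase. GID1C measured 6.99, 7.25 and 6.81 in the wild type and 6.19, 6.10 and 6.01 in the mutant, without overlap (log2 difference -0.92, limma adjusted p = 0.000105). AT1G34110 fell by 0.77.

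Protein turnover held 3 decreases and 2 uncalled genes. Beside ATG8D, SERPIN1, an inhibitor of proteases, fell by 0.75 and AT1G45000, an ATPase subunit of the proteasome, by 0.33. The AT1G45000 call was lost without the third wild-type array (limma adjusted p = 0.0554) and without the first mutant array (limma adjusted p = 0.0592).

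Among 5 transcription and chromatin genes SEU, a transcriptional co-regulator of flower development, fell by 0.42 and ZAP1 by 0.36. DAYSLEEPER, a gene derived from a transposase, measured 7.44, 7.54 and 7.45 in the wild type and 7.52, 7.51 and 7.55 in the mutant. The groups overlapped (limma adjusted p = 0.707). BZIP60, a factor of the unfolded protein response, differed by -0.19 (limma adjusted p = 0.202).

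**Figure D4:**
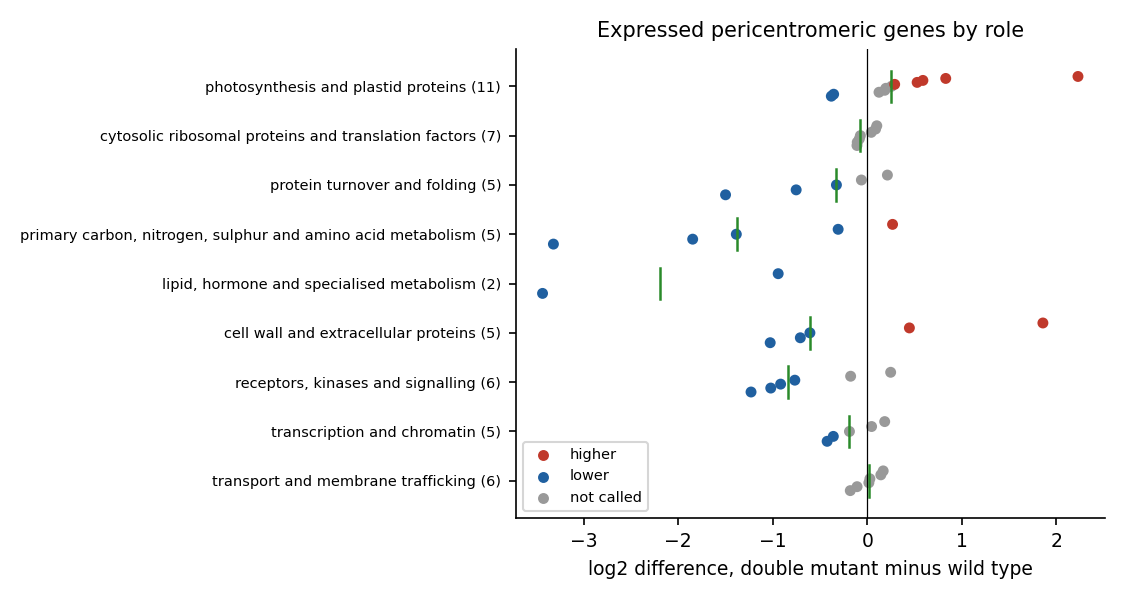
Log2 difference, double mutant minus wild type, of the expressed pericentromeric genes on each role list, colored by the limma call, with the number of genes in parentheses and the list median as a green line. Photosynthesis and plastid genes have a median of 0.26, and the 7 ribosomal and translation genes lie between -0.11 and 0.10.

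By band of wild-type level the medians of the pericentromeric genes lay between -0.16 and -0.05. Below 7, 16 of 92 genes were higher and 28 lower, or 17.4% and 30.4%, with a median of -0.07. Arm genes of this band, taken without the chromosome 5 stretch here and in the bands above, were 20.5% higher and 23.6% lower. Between 7 and 8, 9 of 86 genes were higher and 23 lower, or 10.5% and 26.7% beside 17.9% and 26.5% on the arms, with a median of -0.05. The share of decreases was thus close to that of the arms in this band.

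Between 8 and 9, 7 of 47 genes were higher and 13 lower, or 14.9% and 27.7% beside 18.8% and 27.6% on the arms, with a median of -0.07. From 9 to 10, 5 of 31 were higher and 13 lower, or 16.1% and 41.9% beside 14.4% and 37.2%, and the medians were -0.16 and -0.15. From 10 upward 1 of 22 was higher and 9 lower, or 4.55% and 40.9% beside 10.8% and 37.8%, and the medians were -0.08 and -0.13. From 9 upward decreases took larger shares than below 9, both around the centromeres and on the arms. The wild-type mean sets these bands and is also subtracted in the difference, which by itself favours decreases in high bands. This trend is therefore a description, and how much of it comes from the banding was not tested.

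**Figure D5:**
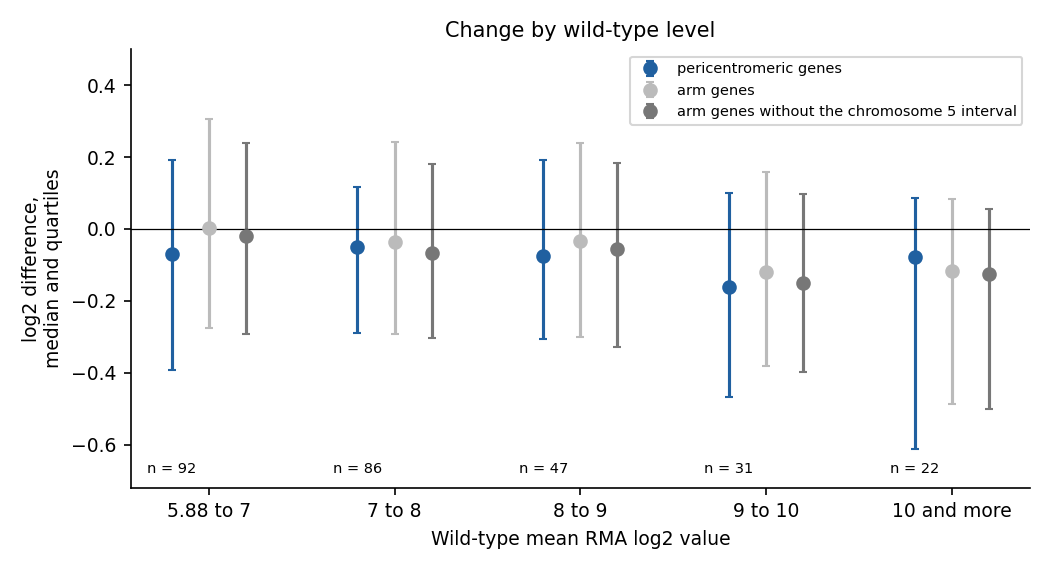
Median log2 difference, double mutant minus wild type, with quartiles as bars, by band of wild-type mean log2 value, for the expressed pericentromeric genes (blue, number given below) and for arm genes with and without the chromosome 5 stretch (pale and dark grey). The quartiles of the 3 sets overlap in every band.

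The genes of these windows below the level in the wild type are given for comparison. Of 1210 below the level, 57 were higher and 90 lower in the mutant, 12.1% called. The mutant mean reached the level for 19 of them, of which 17 were called higher. Crossing the level upward fixed the direction of these 19 in advance, so the count is only a description.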

How the data were processed

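Per the submitters' processing notes, the deposited values are log2 intensities from RMA in R 2.9.0, with limma used for the comparison; the authors' deposited table holds log2 fold changes, p-values, adjusted p-values and a score of log odds (B statistic) per probe set. No other step is named. Genotype and replicate number came from the sample titles. Of 22810 probe sets, 64 controls were left out, and limma 3.58.1 (R 4.3.3; lmFit, eBayes, two-sided, Benjamini-Hochberg) was run on the other 22746 log2 rows with genotype alone, after a test on simulated data. Its log2 differences matched the deposited ones within 6.7e-09, and the authors' deposited table also calls 38 members higher and 86 lower. Of 13513 probe sets naming 1 gene, 13436 matched the RefSeq table of TAIR10.1, used for names and gene order only; the files' build is not given in the sources.

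The members, windows, level and role lists were chosen with earlier results of these data known, so lists have counts and medians and no test. Arm genes were weighted to the members' level bands, bounded at 7, 8, 9 and 10. Genes were named by rule: among called members without overlap the 10 that rose most and the 10 that fell most, the 5 highest wild-type levels, up to 3 called members of each role list with the smallest adjusted p (or the largest statistic where none was called), and the 2 genes on either side of the level; a few others are shown to fill out a list or stretch. What each gene is known to do is background knowledge. Same-numbered arrays of the genotypes deviated with correlations of -0.16 to -0.08, so replicate numbers were not used as pairs. Alternatives changed the source and height of the level, the window, the array scaling, the low-signal filter, the variance trend, the size of change and the arrays used.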

Additional observations from a re-analysis of the deposited data

Results flagged for a closer look

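A signal outside the gene comparison differed between genotypes: the probe set that controls for 25S ribosomal RNA was 6.26 log2 units higher in the double mutant than in the wild type. It read 5.45, 6.81 and 5.53 on the wild-type arrays and 12.19, 12.08 and 12.32 on the mutant arrays, without overlap. Its part in the differences of the pericentromeric genes was not tested.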

How the results depend on the processing

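With 3 arrays a genotype the number of arrays limits the precision, and the moderated fit had 10.6 degrees of freedom. In every refit of the same 278 genes, 0 called genes changed sign. Leaving out each array in turn gave 28 to 39 genes higher and 70 to 86 lower, 35.3% to 45.0% called, and a median between -0.102 and -0.0572, the -0.102 without the first wild-type array; on chromosome 2 it gave 3 to 4 higher, 22 to 24 lower and a median between -0.38 and -0.34, and on chromosome 3 25% to 32.5% called. The level taken from all 6 arrays gave 6 chromosome 2 genes higher and a median of -0.28 there; taken from the mutant it gave a median of -0.0357 in all, and on chromosome 2 again 6 higher and -0.16. A level of 7 kept 186 genes, 22 higher, and on chromosome 2 1 higher and 15 lower. The windows trimmed by 0.25 of their locus range at both ends held 45 genes, 4 higher and 12 lower; its 10 chromosome 2 genes had 0 higher, 5 lower and a median of -0.25, and 0.0% of its 3 chromosome 3 genes were called. These subsets hold fewer genes by construction. Most of the 278 genes lay in the trimmed outer parts of the windows, nearer the arms by locus number. Arrays centred on their medians gave a median of -0.12 in all and -0.40 on chromosome 2, and quantile normalisation again gave -0.11 in all; the cause was not tested. Requiring a log2 difference of 1 as well left 6 higher and 16 lower, 7.91%, with 1 and 6 on chromosome 2 and 7.5% of chromosome 3 genes. Replicate numbers did not pair the arrays; with the replicate number as a block 34 genes were higher and 77 lower, 39.9%, all 111 among those called without it.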
